A study of Mus musculus with 16 samples.

Results

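*Sectm1b*, *Il17re*, *Cd9*, *Cyp2f2*, *Idi2* and *Eaf2* are 6 genes that encode no keratin and whose mean signal was lower in molar germs of *Rsk2-/Y* mouse embryos than in wild-type (WT) germs. They were selected on that difference of the means, 6 of 17215 genes with a signal above 5 on the log2 scale in at least 1 sample, out of 19938 genes that have a probe set pairing with a single symbol. Each gene was read from that probe set, and *Idi2*, which has a pair of them, from the one with the higher mean over the 16 samples. All 6 were above the signal of 5 in all 16 samples, but this is a low bar, as the medians of the arrays ran from 6.74 to 6.94. *Eaf2*, at 5.74 to 6.10, lay below those medians in every pool, and *Idi2* went down to 5.02. Since the genotype difference chose the genes, it is given below as a description with no test. The rule did not name the difference between the sample series or the spread of the pools around their group means. The genes were, however, chosen with earlier results of these data known, so tests of these are not fully free of the choice.

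Each of the 16 samples was a pool of 4 tooth germs, dissected as mandibular molars at E14.5 from embryos of the C57Bl6 background and hybridized to its own Affymetrix Mouse Gene array. The 8 pools of each genotype bear names of the series ABH or AZN, 4 of each genotype in each. The meaning of the series names is not given in the sources used here. The *Rsk2-/Y* embryos were males that lack the X-linked kinase gene *Rsk2* through removal of its exon 2, and the WT embryos were males from the same litters. The array spreads its probes over the whole gene, so its signal hardly checks the labels, and *Rps6ka3*, the gene's current symbol, read 9.61 to 10.22 in WT and 9.74 to 10.40 in *Rsk2-/Y* pools. Among the tissue lists, all 36 epithelium genes with a probe set (of 40), all 25 dental mesenchyme genes (of 26) and all 16 enamel knot genes (of 17) were above the signal of 5 in at least 1 pool. Skeletal muscle genes were also measured, 22 of 22, and their mean signal ran from 7.50 to 8.91 in WT and from 7.44 to 9.76 in *Rsk2-/Y* pools, highest in the pools AZN_MolairesWT2 and AZN_MolairesMutant3. The same pools had the lowest mean of the epithelium list in their genotype, 9.11 and 8.94.

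At E14.5 the molar is at the cap stage, in which an epithelial enamel organ, held together by the cadherin CDH1, folds over a condensed mesenchyme. A germ that is cut out can carry some oral epithelium, jaw muscle or bone precursors, and an array of a pool averages over all cells in it. The genes described here act in different ways. *Sectm1b* encodes a secreted and transmembrane protein of the SECTM1 family, whose human member binds the lymphocyte receptor CD7. *Il17re* encodes the receptor chain that epithelial cells use, together with IL-17RA, to sense the cytokine IL-17C. *Cd9* encodes a tetraspanin that sits with integrins in the cell membrane. *Cyp2f2* encodes a cytochrome P450 best known from the club cells of the airway, *Idi2* an isomerase of isopentenyl diphosphate in the mevalonate pathway, and *Eaf2* a partner of the ELL factors that speed transcription elongation.

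The bases upstream of a gene's start are shown for all 6 genes as a description, and what controls the genes was not tested. Each run is the 250 bases before the start on the gene's strand, from RefSeq on GRCm38.p6. It lies at chr11:121063570-121063819 (minus strand) for *Sectm1b*, chr6:113458521-113458770 (plus) for *Il17re*, chr6:125494761-125495010 (minus) for *Cd9*, chr7:27119705-27119954 (plus) for *Cyp2f2*, chr13:8952613-8952862 (plus) for *Idi2* and chr16:36874827-36875076 (minus) for 1 of 3 listed starts of *Eaf2*. Capitals mark CAGGTG, the E-box letters bound by the ZEB and SNAI repressors of *Cdh1*.
Sectm1b: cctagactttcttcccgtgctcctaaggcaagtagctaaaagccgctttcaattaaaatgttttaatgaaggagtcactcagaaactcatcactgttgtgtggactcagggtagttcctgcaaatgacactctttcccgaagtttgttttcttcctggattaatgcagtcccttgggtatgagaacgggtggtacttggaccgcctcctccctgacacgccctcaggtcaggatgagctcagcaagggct
Il17re: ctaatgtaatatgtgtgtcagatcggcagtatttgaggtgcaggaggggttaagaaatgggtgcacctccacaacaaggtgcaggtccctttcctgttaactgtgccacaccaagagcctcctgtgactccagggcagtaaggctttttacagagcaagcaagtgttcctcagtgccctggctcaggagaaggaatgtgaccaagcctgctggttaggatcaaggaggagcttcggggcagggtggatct
Cd9: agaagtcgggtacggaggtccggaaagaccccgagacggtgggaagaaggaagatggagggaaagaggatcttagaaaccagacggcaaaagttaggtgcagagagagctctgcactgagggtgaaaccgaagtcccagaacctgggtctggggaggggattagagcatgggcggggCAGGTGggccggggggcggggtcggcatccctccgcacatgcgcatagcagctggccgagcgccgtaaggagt
Cyp2f2: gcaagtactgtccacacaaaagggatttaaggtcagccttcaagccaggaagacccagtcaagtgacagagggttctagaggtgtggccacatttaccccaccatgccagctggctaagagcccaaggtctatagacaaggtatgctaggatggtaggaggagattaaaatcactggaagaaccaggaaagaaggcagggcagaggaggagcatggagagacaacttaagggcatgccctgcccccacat
Idi2: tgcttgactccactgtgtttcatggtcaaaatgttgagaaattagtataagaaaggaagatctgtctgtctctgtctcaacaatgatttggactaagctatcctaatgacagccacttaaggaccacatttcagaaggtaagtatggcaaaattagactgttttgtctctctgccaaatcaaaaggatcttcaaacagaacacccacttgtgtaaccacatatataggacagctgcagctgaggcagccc
Eaf2: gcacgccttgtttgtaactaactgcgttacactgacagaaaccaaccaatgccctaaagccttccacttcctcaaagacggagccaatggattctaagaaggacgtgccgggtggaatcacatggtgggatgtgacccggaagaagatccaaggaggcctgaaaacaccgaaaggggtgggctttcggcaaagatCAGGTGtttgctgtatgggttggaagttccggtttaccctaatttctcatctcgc
All 8 windows of the 6 genes, 300 bases that begin 250 before the start, were searched on both strands for CAGGTG, for the AP-2 letters GCCNNNGGC and for the GRHL letters AACNGGTT. CAGGTG is in 20.2% of the 32851 mouse promoters of that length, GCCNNNGGC in 16.6% and AACNGGTT in 2.09%. CAGGTG was found in *Cd9*, at -73 to -68 from the start, and in *Eaf2*, at -55 to -50 in the window shown and at -72 to -67 in another. GCCNNNGGC was found in *Cd9*, at 19 to 27 after the start, and in the second *Eaf2* window, at -110 to -102. Neither motif overlapped the other, AACNGGTT was in none of the 8 windows, and the windows of *Sectm1b*, *Il17re*, *Cyp2f2* and *Idi2* held none of the 3 motifs.

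**Figure D1:**
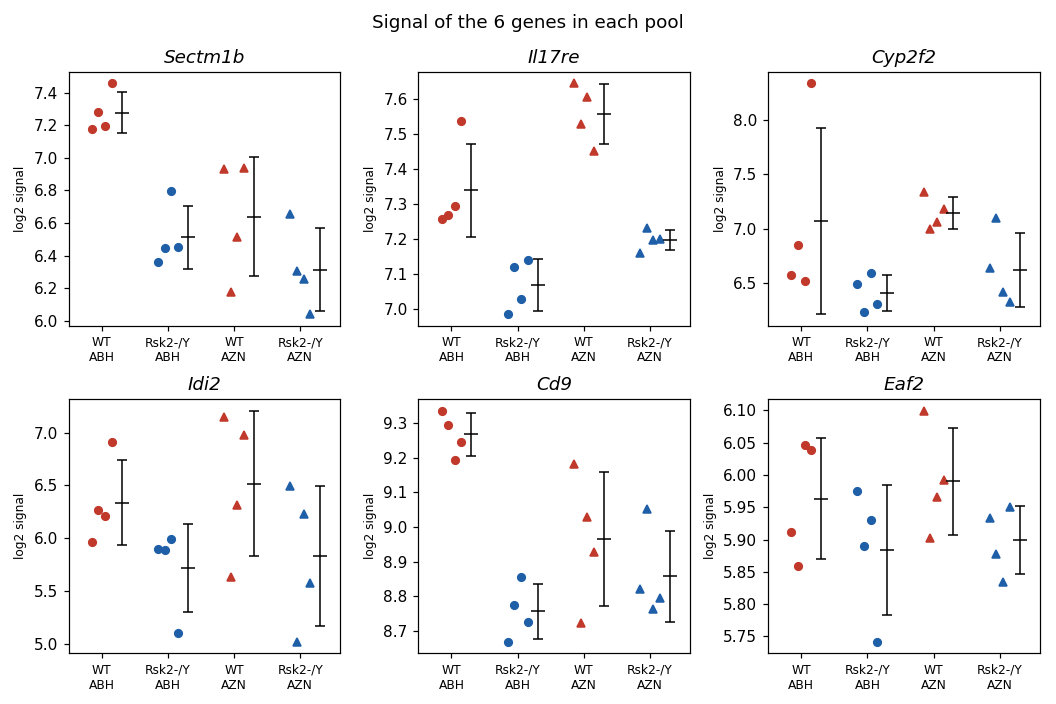
Log2 signal of each gene (vertical axis, each panel with its own range) in the 16 pools, by genotype and series; each point is 1 pool, and the bar beside the points gives the mean and SD of 4 pools. *Il17re* is the gene whose WT pools, 7.26 and above, all sit above the *Rsk2-/Y* pools, 7.23 and below, and *Cyp2f2* has 1 WT pool at 8.34 far above the others.

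*Sectm1b* (probe set 10394060) was lower in *Rsk2-/Y* pools, and the distance was wide in ABH and narrow in AZN. In ABH it read 7.17, 7.28, 7.20 and 7.46 in the WT pools and 6.36, 6.44, 6.80 and 6.45 in the *Rsk2-/Y* pools. In AZN it read 6.93, 6.18, 6.51 and 6.94 in WT and 6.65, 6.30, 6.25 and 6.04 in *Rsk2-/Y*. The ABH groups were apart by a wide margin, while in AZN the second WT pool, AZN_MolairesWT2, lay below 3 of the 4 *Rsk2-/Y* pools. The means over 8 pools were 6.96 ± 0.43 in WT and 6.41 ± 0.24 in *Rsk2-/Y* (SD), a difference of -0.55 on the log2 scale (standard error 0.15), made of -0.76 (0.10) in ABH and -0.33 (0.18) in AZN. Without AZN_MolairesWT2 the AZN difference was -0.48. These pools are mixtures, so fewer cells of a type and less RNA per cell cannot be told apart for any of the genes.

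*Il17re* (10540679) was the gene of the 6 whose genotypes did not overlap in either series or over all pools. The ABH pools read 7.26, 7.27, 7.29 and 7.54 in WT and 6.99, 7.12, 7.03 and 7.14 in *Rsk2-/Y*. The AZN pools read 7.64, 7.53, 7.60 and 7.45 in WT and 7.16, 7.23, 7.20 and 7.20 in *Rsk2-/Y*. The lowest WT pool lay just above the highest *Rsk2-/Y* pool, and the 4 *Rsk2-/Y* pools of AZN had an SD of only 0.029. The means were 7.45 ± 0.16 and 7.13 ± 0.086, a difference of -0.31 (standard error 0.064), with -0.27 in ABH and -0.36 in AZN. Of the 17215 genes, 3 or 0.0174% were lower in all 8 *Rsk2-/Y* pools than in every WT pool, and *Il17re* was chosen with that ordering known.

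*Cd9* (10548030) was lower in *Rsk2-/Y* mainly in ABH. There it read 9.34, 9.29, 9.19 and 9.24 in WT and 8.67, 8.77, 8.86 and 8.73 in *Rsk2-/Y*. In AZN it read 9.18, 8.72, 9.03 and 8.93 in WT and 8.82, 9.05, 8.76 and 8.80 in *Rsk2-/Y*. The ABH groups lay well apart, and the AZN groups ran through each other, with AZN_MolairesWT2 the lowest of all 8 AZN pools. The difference was -0.31 (standard error 0.081) over all pools, from means of 9.12 ± 0.21 and 8.81 ± 0.11. It was -0.51 (0.058) in ABH, -0.11 (0.11) in AZN and -0.19 in AZN without AZN_MolairesWT2.

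*Cyp2f2* (10551293) showed overlapping genotypes in both series. In ABH the WT pools read 6.58, 6.85, 6.52 and 8.34 and the *Rsk2-/Y* pools 6.49, 6.23, 6.59 and 6.31. In AZN they read 7.34, 7.003, 7.06 and 7.18 in WT and 6.64, 7.10, 6.42 and 6.33 in *Rsk2-/Y*. A single WT pool, ABH_25A, stood far above the rest, and 1 *Rsk2-/Y* pool, AZN_MolairesMutant1, lay among the AZN WT pools. The means were 7.11 ± 0.57 and 6.51 ± 0.27, a difference of -0.60 (standard error 0.20) that was -0.42 without ABH_25A. It was -0.66 in ABH and -0.53 in AZN.

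*Idi2* (10403420) spread widely among pools of 1 group, and its genotypes overlapped in both series. In ABH it read 5.96, 6.27, 6.21 and 6.91 in WT and 5.89, 5.89, 5.99 and 5.10 in *Rsk2-/Y*. In AZN it read 7.15, 5.63, 6.31 and 6.97 in WT and 6.50, 5.02, 6.23 and 5.57 in *Rsk2-/Y*. The lowest WT pool was again AZN_MolairesWT2. The means were 6.43 ± 0.53 and 5.77 ± 0.52, a difference of -0.65 (standard error 0.23), with -0.62 in ABH, -0.69 in AZN and -0.98 in AZN without that pool. The difference of the medians over all pools was smaller, -0.40. The second probe set of *Idi2*, 10407537, followed the first closely over the 16 pools (r = 0.981), with a difference of -0.53.

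*Eaf2* (10439346) differed least. It read 5.91, 5.86, 6.05 and 6.04 in the ABH WT pools and 5.97, 5.89, 5.93 and 5.74 in the ABH *Rsk2-/Y* pools. In AZN it read 6.10, 5.90, 5.97 and 5.99 in WT and 5.93, 5.88, 5.83 and 5.95 in *Rsk2-/Y*. The genotypes ran through each other in both series, all within a narrow band below the median of every array. The means were 5.98 ± 0.083 and 5.89 ± 0.075, a difference of -0.085 (standard error 0.047), with -0.079 in ABH and -0.091 in AZN.

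In ABH 3 of the 6 genes did not overlap between genotypes (*Cd9*, *Il17re* and *Sectm1b*), against 5.84% of all genes with the lower values in *Rsk2-/Y*. In AZN it was 1 of the 6 (*Il17re*), against 0.807% of all genes. A mean lower by more than 1.2-fold was found for 5 of the 6, *Eaf2* being the exception, against 0.714% of all genes, and 60.3% of all genes had a difference below 0. All of these follow from how the genes were picked. With limma at a false discovery rate of 0.1 and a fold change of 1.2, and with no term for the series, 0% of the 17215 genes were called lower and none higher in *Rsk2-/Y*. At an unadjusted p below 0.05 it was 511 lower and 169 higher. With no difference in any gene, a share of about 0.05 of the 17215 would reach that p. Without the pool AZN_MolairesWT2, an exclusion chosen after seeing the data, the same fit called 9 genes lower (0.0523%), *Cd9* among them. The ABH pools alone gave 3 genes lower (0.0174%), *Cd9* and *Sectm1b* among them, and 1 higher. Both genes were chosen on that contrast in these same pools, so their place among the genes called is no test of them. A fit with blocks for the series and for like-named AZN pools called none. It also joined the AZN pools left over, AZN_MolairesWT2 and AZN_MolairesMutant4, in a block, though their names do not match. At an unadjusted p below 0.05 it had 1046 lower and 412 higher. The *Rsk2-/Y* minus WT difference had unequal sizes in the series for *Cd9* and *Sectm1b*, but the interaction of genotype and series did not pass for any of the 6 or for any other gene. It was 0.40 for *Cd9* (adjusted p = 0.728 from limma) and 0.44 for *Sectm1b* (adjusted p = 0.794), where a value above 0 means a smaller drop in AZN. For *Il17re* it was -0.088, for *Cyp2f2* 0.14, for *Idi2* -0.066 and for *Eaf2* -0.012, with adjusted p from 0.888 to 0.988.

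The series themselves differed in many genes: 16.1% of genes were called between AZN and ABH pools, 5.8% higher and 10.3% lower in AZN, with genotype in the fit. Of the 6 genes 1 was called, a share like that of all genes: *Sectm1b* fell in AZN by 0.42 on the log2 scale (standard error 0.12, adjusted p = 0.0114 from limma). Within the WT pools the AZN minus ABH difference of *Sectm1b* was -0.64 (adjusted p = 0.0233), all 4 AZN values lying below all 4 ABH values. Within *Rsk2-/Y* it was -0.20 (adjusted p = 0.305). *Il17re* was 0.17 higher in AZN (standard error 0.048, adjusted p = 0.00932), which passed the false discovery rate but is under the fold of 1.2. *Cd9* did not pass over all pools (-0.10, adjusted p = 0.322), though within WT it was -0.30 (adjusted p = 0.0501) and past both limits, as were 13.7% of all genes, with all 4 AZN pools below the ABH pools. *Cyp2f2* (0.14), *Idi2* (0.15) and *Eaf2* (0.021) had adjusted p from 0.597 to 0.748. Without the pool ABH_25A, *Cyp2f2* was 0.34 higher in AZN and past both limits (adjusted p = 0.0198 from limma). With 1 pool left out the difference of *Idi2* ran from 0.047 to 0.28 (highest without AZN_MolairesWT2) and was not called. *Cdh1* fell in AZN by 0.32 on the log2 scale (adjusted p = 0.00159), so *Sectm1b* and *Cdh1* were lower in the same series and *Il17re* was higher. The methods' t-test, which had no term for genotype, called none of the 6, with an adjusted p of 0.111 for *Sectm1b*. The genotype difference counted as spread in it, and the standard error of *Sectm1b* was 0.20 in place of 0.12. What sets the series apart was not tested.

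*Cdh1*, the E-cadherin gene of epithelial cells (probe set 10575052), read 10.22, 10.22, 10.25 and 10.53 in the ABH WT pools and 9.92, 9.99, 10.10 and 9.99 in the ABH *Rsk2-/Y* pools. In AZN it read 10.13, 9.71, 9.99 and 10.08 in WT and 9.74, 9.81, 9.47 and 9.78 in *Rsk2-/Y*. It was thus highest in ABH_25A, the WT pool with the highest *Cyp2f2*, and lowest within AZN WT in AZN_MolairesWT2. Its *Rsk2-/Y* minus WT difference was -0.29 (standard error 0.10), and all 36 epithelium genes were below 0, with a median of -0.21 against -0.016 over all genes. The list of 20 oral suprabasal epithelium genes, such as the keratins of the upper layers, had 19 below 0 with a median of -0.19. Of 22 muscle genes 21 were above 0, with a median of 0.54, and of 25 dental mesenchyme genes 15 were, with a median of 0.014. None of these genes was called by genotype.

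**Figure D2:**
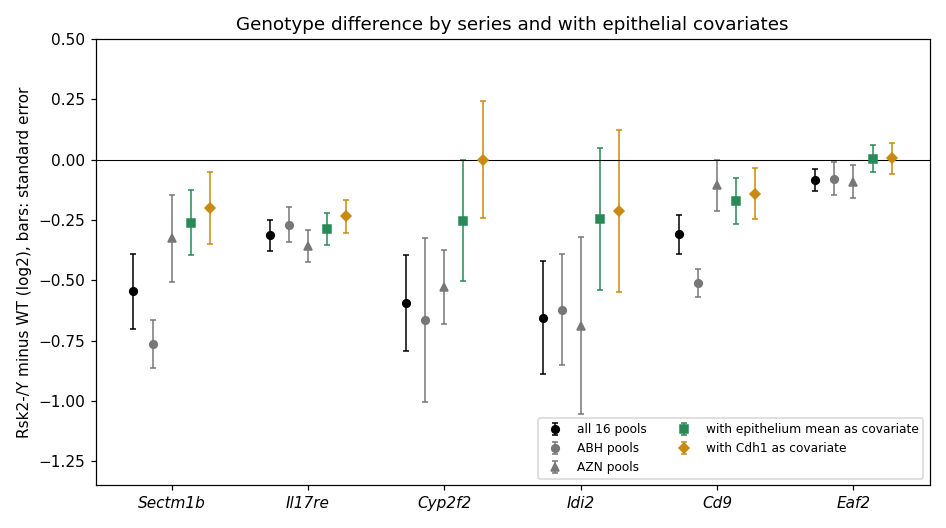
*Rsk2-/Y* minus WT difference of each gene on the log2 scale (vertical axis) over all 16 pools, in each series alone, and with the series and an epithelial measure as covariates; bars are standard errors and no test is shown. *Il17re* stays between -0.24 and -0.36 throughout, whereas *Cyp2f2* lies at -0.0014 and *Eaf2* at 0.0060 with *Cdh1* in the fit.

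With the series and *Cdh1* as covariates, the genotype difference of *Sectm1b* was -0.20 (standard error 0.15), of *Cyp2f2* -0.0014 (0.24), of *Idi2* -0.21 (0.34), of *Cd9* -0.14 (0.11) and of *Eaf2* 0.0060 (0.064). All 5 were nearer to 0 than without the covariates, and those of *Cyp2f2*, *Idi2* and *Eaf2* were smaller than their standard errors. *Il17re* kept a difference of -0.24 (0.070). With the mean of the 36 epithelium genes in place of *Cdh1* the values were -0.26 (0.13) for *Sectm1b*, -0.29 (0.066) for *Il17re*, -0.25 (0.25) for *Cyp2f2*, -0.25 (0.29) for *Idi2*, -0.17 (0.096) for *Cd9* and 0.0041 (0.054) for *Eaf2*. *Il17re* was again the least changed. The covariates differ between the genotypes themselves, so these fits cannot tell a change in epithelial share from one in the genes.

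A measure that leaves out the genotype difference is whether each gene followed *Cdh1* from pool to pool inside a group. For this, the mean of its own genotype and series was taken from each pool's value, and the deviations were correlated over the 16 pools, with permutations within the groups. The 6 genes were set against *Cdh1* and against the epithelium mean, 12 relations in all. *Cyp2f2* followed *Cdh1* with r = 0.63 (permutation p = 0.00894, adjusted over the 12 to 0.0358; Spearman's rho 0.71, p = 0.00675) and the epithelium mean with r = 0.45 (permutation p = 0.00601, adjusted 0.0358; rho 0.63, p = 0.00534). *Eaf2* followed the epithelium mean with r = 0.66 (permutation p = 0.00125, adjusted 0.0150; rho 0.72, p = 0.00162). These 3 relations passed an adjusted p of 0.05, that of *Eaf2* with signals below the median of every array. Before adjustment, 3 of the 6 genes (*Sectm1b*, *Cyp2f2* and *Eaf2*) had an r above 0 with a permutation p below 0.05 with *Cdh1*, against 6.29% of all genes, and the same 3 with the epithelium mean, against 5.06% of the genes outside that list.

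The other 9 relations did not pass. *Eaf2* had r = 0.55 with *Cdh1* (permutation p = 0.0379, adjusted 0.0759; rho 0.54, p = 0.0483). *Sectm1b* had r = 0.67 with *Cdh1* (permutation p = 0.0192, adjusted 0.0577; rho 0.58, p = 0.0407) and 0.69 with the epithelium mean (p = 0.0379, adjusted 0.0759 by permutation; rho 0.51, p = 0.104). *Cd9* had 0.62 with *Cdh1* (permutation p = 0.0505, adjusted 0.0866; rho 0.54, p = 0.0530) and 0.65 with the epithelium mean (adjusted permutation p = 0.112; rho 0.38, p = 0.219). *Idi2* had 0.40 and 0.45 (adjusted permutation p = 0.240 for both; rho 0.43 and 0.50, permutation p = 0.160 and 0.109). *Il17re* had 0.47 with *Cdh1* (adjusted permutation p = 0.135; rho 0.43, p = 0.124) and the lowest value of all, 0.20, with the epithelium mean (adjusted permutation p = 0.483; rho 0.15, p = 0.631). In sign, all 12 relations were above 0, as were 57.3% of all genes with *Cdh1* and 57.5% with the epithelium mean.

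**Figure D3:**
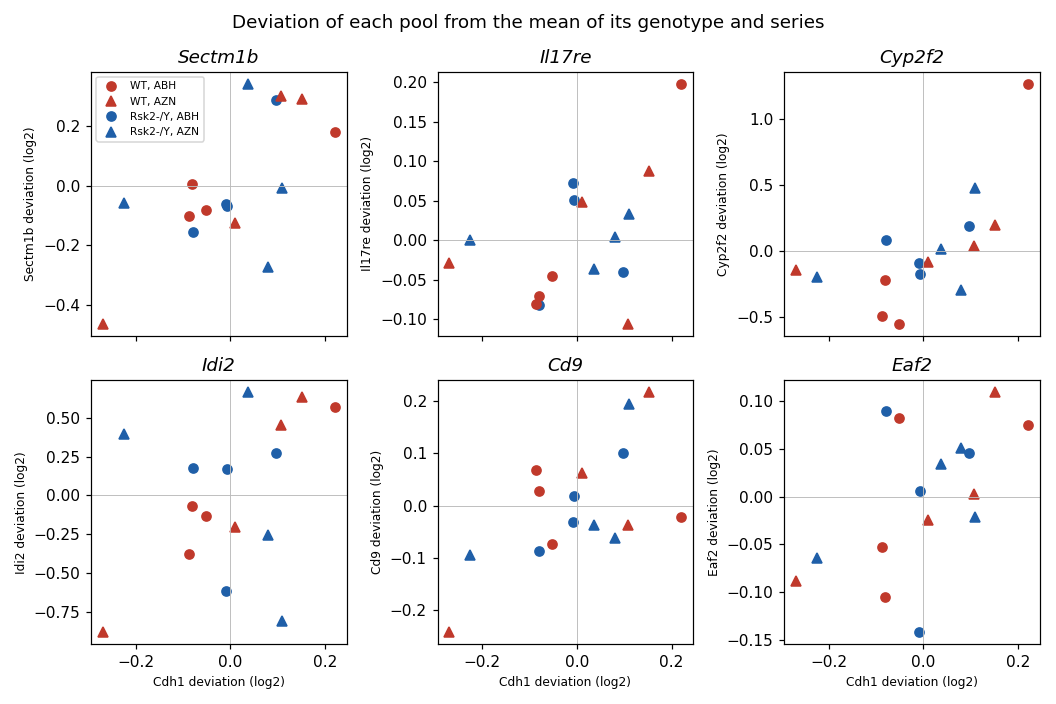
Deviation of each gene (vertical axis, log2, each panel with its own range) against that of *Cdh1* (horizontal axis, log2) from the mean of the pool's genotype and series; each of the 16 points is 1 pool, circles ABH and triangles AZN, red WT and blue *Rsk2-/Y*. The correlations run from 0.40 for *Idi2* to 0.67 for *Sectm1b*; the WT pool at the far left, AZN_MolairesWT2, and the WT pool at the far right, ABH_25A, lie at the ends of several panels.

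A few pools carried much of these values. The pools farthest from the median on the *Cdh1* axis were AZN_MolairesWT2 and AZN_MolairesMutant3, and without both none of the 12 relations passed. The r with *Cdh1* was then 0.84 for *Cyp2f2* (adjusted permutation p = 0.0557), 0.67 for *Il17re*, 0.53 for *Sectm1b* (adjusted 0.0557), 0.41 for *Idi2*, 0.38 for *Eaf2* and 0.23 for *Cd9*. Thus *Cd9* rested on those pools, and *Cyp2f2* and *Il17re* had higher values without them. With the epithelium mean, *Eaf2* kept 0.66 and *Cyp2f2* had 0.67, at adjusted permutation p = 0.0557 and 0.0535. Leaving out ABH_25A instead took *Cyp2f2* to 0.47 with *Cdh1* (adjusted permutation p = 0.206) and *Il17re* to 0.17, and leaving out AZN_MolairesWT2 took *Idi2* to 0.12, *Cd9* to 0.37 and *Sectm1b* to 0.47. Leaving out AZN_MolairesMutant3, in which *Cdh1* was lowest, gave 0.62 for *Idi2* and 0.73 for *Sectm1b* with *Cdh1* and 7 of 12 relations past the threshold.

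Split by genotype, the 8 WT pools gave r of 0.90 for *Sectm1b*, 0.96 for *Idi2*, 0.70 for *Cyp2f2*, 0.73 for *Eaf2*, 0.61 for *Il17re* and 0.59 for *Cd9* with *Cdh1*. Of the 12 relations, 6 passed in an exact permutation test within WT, those of *Sectm1b*, *Idi2* and *Cyp2f2*, each with an adjusted p of 0.0347. In the 8 *Rsk2-/Y* pools the same r were 0.27, -0.40, 0.45, 0.28, 0.11 and 0.68, and none passed (exact permutation, adjusted p from 0.542 to 0.778 over the 12). Whether the genotypes differ in these relations was not tested. Within ABH the r with *Cdh1* was 0.81 for *Sectm1b*, 0.81 for *Il17re*, 0.89 for *Cyp2f2*, 0.66 for *Idi2*, 0.15 for *Cd9* and 0.35 for *Eaf2*. Within AZN it was 0.62, 0.19, 0.53, 0.30, 0.77 and 0.81 in that order. None of the 12 passed in either series taken alone. *Cd9* and *Eaf2* thus had the lower values in ABH and the higher ones in AZN, and the other 4 genes the reverse, a contrast that was not tested.

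Other tissues were set beside the genes in the same way, as a description. *Cyp2f2* had its highest r, 0.79, with the oral suprabasal list, and all 20 genes of that list were above 0 with it, against 51.3% of all genes. The pool ABH_25A had by far the largest deviation of *Cyp2f2*, 1.27, and the highest mean of that list among WT pools, 7.97. These values were not recomputed without it, so they may rest on that pool. *Eaf2* had 0.66 with the epithelium list, all 36 genes above 0 against 53.7% of all genes, and -0.51 with the 6 osteoblast genes. *Cd9* had 0.65 with the epithelium list, 35 of 36 genes above 0 against 52.2%, and -0.55 with the muscle list, none of whose 22 genes was above 0. *Sectm1b* had 0.69 with the epithelium list, but also 0.78 with 8 housekeeping genes and 0.75 with 11 macrophage genes, and 35 of 36 epithelium genes were above 0 against 61.7% of all genes. With the muscle list *Sectm1b* had -0.44, and none of the 22 muscle genes was above 0. *Idi2* had 0.53 with the housekeeping, 0.52 with the oral suprabasal and 0.45 with both the epithelium and the macrophage list. *Il17re* had no value above 0.45, which was with the oral suprabasal list. What part the other tissues had in the genotype differences was not tested.

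**Figure D4:**
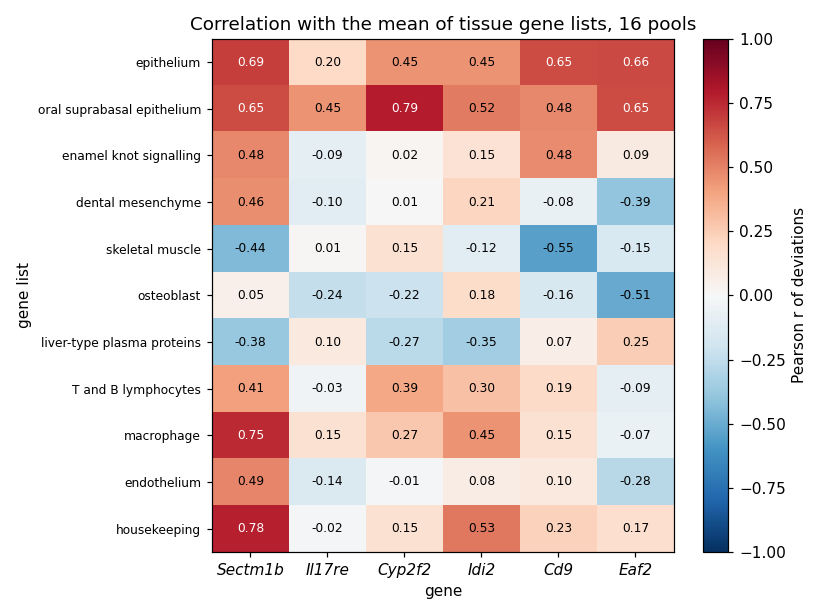
Pearson correlation (colour and printed value) of the deviations of each gene (columns) with those of the mean of each tissue gene list (horizontal rows of the map) over 16 pools. *Cyp2f2* is highest with the oral suprabasal list at 0.79, *Sectm1b* with the housekeeping list at 0.78, and *Il17re* is between -0.24 and 0.45 with every list.

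Among all 17214 other genes, *Cdh1* stood 125th in likeness to *Cd9*, 218th for *Cyp2f2*, 410th for *Il17re*, 549th for *Eaf2*, 1001st for *Sectm1b* and 3551st for *Idi2*. The genes most like *Cyp2f2* over the 16 pools were *Ly6d* (r = 0.93), *Krt4* (0.88), a keratin of the upper layers of oral epithelium, and *Cyp2t4* (0.87), its neighbour on chromosome 7. They were not recomputed without ABH_25A, in which *Cyp2f2* stood far above the other pools. Those most like *Idi2* were *Anxa8* (0.93), *Insyn2b* (0.92) and *Tgm1* (0.91), the transglutaminase that cross-links the envelope of stratified epithelium. Those most like *Sectm1b* were *Ppp1r26* (0.95), *Ntrk2* (0.93) and *Creb3l4* (0.92). *Eaf2* was nearest to *Patj* (0.92), a polarity gene of tight junctions, *Map3k20* (0.91) and *Meis1* (0.89). *Cd9* was nearest to *Ide* (0.84), *Mtag2* (0.82) and *Igsf9b* (0.81), and *Il17re* to *Cnst* (0.80), *Ccdc54* (0.78) and *Klhl32* (0.77). With 16 pools and so many genes such values are the top of a long list, and they carry no test.

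Among the 6 genes the closest pair was *Sectm1b* and *Idi2* (r = 0.75), then *Il17re* and *Cyp2f2* (0.65), *Idi2* and *Eaf2* (0.58) and *Sectm1b* and *Cd9* (0.53). The farthest was *Sectm1b* and *Il17re* (0.10), the genes that also moved in opposite directions between the series. The upstream windows of *Sectm1b* and *Idi2* printed above held none of the 3 motifs, each of which most mouse promoters lack. Whether the pair shares a control was not tested.

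The relatives of each gene were read as well, and none of the genes in these lists was called by genotype. *Sectm1a*, the paralogue next to *Sectm1b* on chromosome 11, had a difference of -0.21 (standard error 0.077) and was 0.20 higher in AZN (adjusted p = 0.0167 from limma, under the fold of 1.2), where *Sectm1b* was lower. Its r with *Sectm1b* was -0.073. *Cd7*, which encodes the partner of human SECTM1, had -0.046, and *Tnfrsf18*, which encodes the receptor GITR, -0.050, so all 3 measured genes of that list were below 0 with a median of -0.050.

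Of 18 genes of the IL-17 receptor pathway 11 were below 0, with a median of -0.016, the same as over all genes. *Il17ra*, the co-receptor of *Il17re*, had -0.098, *Il17rb* -0.065, *Il17rc*, which lies next to *Il17re* on chromosome 6, -0.091 and *Il17rd* -0.070. All of them lay below 0 by less than the -0.31 of *Il17re*. *Il17c*, the ligand, had 0.094 and rose in AZN by 0.27 (adjusted p = 0.00303 from limma). The largest differences in the list were 0.48 for *Il17b* and -0.14 for *Tab3*.

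Of 15 CYP2 genes 8 were below 0, with a median of -0.0050. *Cyp2t4* had -0.43 (standard error 0.26), *Cyp2w1* -0.29 (0.10) and *Cyp2s1* 0.047, the last falling in AZN by 0.42 (adjusted p = 0.00329). *Cyp2t4* and *Cyp2f2* thus lay on the same side and moved together across pools, a relation that was not recomputed without ABH_25A. Of 20 genes of the mevalonate and cholesterol route 12 were below 0, with a median of -0.018. *Idi1*, the paralogue and neighbour of *Idi2* on chromosome 13, had -0.034, and the largest differences were 0.13 for *Nsdhl* and -0.13 for *Fdft1*.

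Of 29 tetraspanins and CD9 partners 19 were below 0, with a median of -0.026. *Cd151* had -0.12 and followed *Cd9* across pools (r = 0.73), and the integrin gene *Itga3* had -0.22 (r = 0.57). *Cd81*, a close relative of *Cd9*, had -0.072 and fell in AZN by 0.32 (adjusted p = 0.000281 from limma). *Cd82* had -0.038 and rose in AZN by 0.36 (adjusted p = 0.000141), *Cd63* had 0.072 and *Tspan8* -0.18. Of 17 genes of the EAF and ELL elongation complex 10 were below 0, with a median of -0.020. *Eaf1*, the paralogue of *Eaf2*, had -0.062 and an r of -0.42 with it, *Ell2* had 0.082 and rose in AZN by 0.39 (adjusted p = 0.0100), and the largest of the others were -0.11 for *Aff1* and -0.091 for *Ell3*.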

How the data were processed

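The deposited values were log2 signals per probe set, made by the authors with RMA in Affymetrix Expression Console 1.3.1.187, the tools in the submitters' processing notes. RMA corrects the background, equalises the arrays and summarises the probes, so nothing was normalized further. Values ran from 2.57 to 13.97, correlations between samples from 0.976 to 0.997, and no 2 samples were identical. Arrays hold no counts, and their number limits the precision.

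Of 35556 probe sets, 21789 pair with 1 symbol in the platform's annotation, 1621 with several and 12146 with none, and 18834 of the first exceeded a signal of 5 somewhere and were tested. A gene was read from its probe set with the highest mean. Series, genotype and their interaction were fitted with limma 3.58.1 in R 4.3.3 (two-sided, with Benjamini-Hochberg adjustment over the 18834) and called at a false discovery rate of 0.1 and a fold change of 1.2, the study's limits. The equal-variance test for 2 groups that the study's statistics section names was run between the series, with no term for genotype, as the methods' t-test. Correlations used 100000 two-sided permutations within genotype and series, or all arrangements with 8 pools. Nothing states which pools shared litters, so p-values measure only the spread between these pools. The members and gene lists were chosen with earlier results of these data known, as was the rule for the named genes: the 6 genes and *Cdh1*, the nearest relatives in each pathway list with its 2 largest differences, and the 3 genes most like each. Alternatives left out samples, took 1 series or genotype, rescaled or weighted the arrays, dropped the signal minimum, changed the test, list, probe set or centring, or added covariates. The tests were checked on simulated data. Promoters came from RefSeq on GRCm38.p6, and *Cdh1* is not in that table.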

Additional observations from a re-analysis of the deposited data

Results flagged for a closer look

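In 36 groups of 4 or 8 pools, formed from the 6 genes by genotype and series, 4 had a highest or lowest pool that stood apart from the rest by Dixon's criterion, which chance meets in about 1 group in 20. *Cyp2f2* was 8.34 in ABH_25A, against 6.52 to 7.34 in the other WT pools. *Il17re* was 7.54 in the same pool, against 7.26 to 7.29 in the other ABH WT pools. This pool also had the highest *Cdh1* (10.53), the highest mean of the epithelium list (9.64) and the highest mean of the oral suprabasal list (7.97) of the WT pools. *Cyp2f2* was 7.10 in AZN_MolairesMutant1, against 6.23 to 6.64 in the remaining pools of its genotype. The mean of the oral suprabasal list in that pool, 7.4116, was level with the 7.4105 of ABH_16A, in which *Cyp2f2* was 6.59. *Idi2* was 5.10 in ABH_26A, against 5.89 to 5.99 in the other ABH *Rsk2-/Y* pools.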

How the results depend on the processing

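The genotype difference kept its sign for *Sectm1b*, *Il17re*, *Cyp2f2*, *Idi2* and *Cd9* under every alternative run. With the series and *Cdh1* as covariates it was -0.20 for *Sectm1b*, -0.0014 for *Cyp2f2* and 0.0060 for *Eaf2*, and with the epithelium mean 0.0041 for *Eaf2*, whose sign was thus turned. *Cd9* was -0.51 in ABH alone and -0.11 in AZN alone. Leaving out 1 pool at a time gave -0.66 to -0.47 for *Sectm1b*, -0.34 to -0.29 for *Il17re*, -0.68 to -0.42 for *Cyp2f2*, -0.77 to -0.55 for *Idi2*, -0.36 to -0.28 for *Cd9* and -0.10 to -0.064 for *Eaf2*. A replicate block of AZN pools with the series leaves the differences of this balanced design as they are by construction. Like-named pools shared a block, and so did AZN_MolairesWT2 and AZN_MolairesMutant4, whose names do not match. With these blocks the standard error of *Sectm1b* went from 0.15 to 0.090. The genes at an unadjusted p below 0.05 in limma went from 511 lower and 169 higher to 1046 and 412. The deviations of like-named pools correlated at -0.034 and -0.0033 for the numbered pairs and 0.68 for the unnumbered one. These values cannot decide whether the names mark paired pools, since pools that share a litter or a batch need not deviate alike.

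Between the series, 1 of the 6 genes was called in the fit of all pools (16.1% of all genes), 2 in WT alone (13.7%) and 0 in *Rsk2-/Y* alone (18.6%). It was 0 by the methods' t-test (15.6%), which left genotype out. Leaving out 1 pool at a time gave 1 to 2, the higher without ABH_25A (16.2%), where *Cyp2f2* was added. The AZN minus ABH difference of *Cd9* was 0.10 in *Rsk2-/Y* alone, and that of *Eaf2* ran from -0.00075 to 0.035 with 1 pool left out. The interaction of *Idi2* was 0.017 with its other probe set.

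Of the 12 correlations, 3 passed over all pools, 6 in WT alone and 0 in *Rsk2-/Y* alone, in ABH alone, in AZN alone and without the 2 farthest pools. With no group means removed 7 passed and with series means alone removed 12, but both keep the genotype difference that chose the genes. Leaving out 1 pool gave 0 (without ABH_11A) to 7 (without AZN_MolairesMutant3). It was 5 without AZN_MolairesMutant4, and 1, *Eaf2* with the epithelium mean, without ABH_25A, ABH_16A, AZN_MolairesMutant1 or any of the 4 AZN WT pools. In *Rsk2-/Y* alone r turned to -0.40 for *Idi2* with *Cdh1*, to -0.25 with the epithelium mean and to -0.22 for *Il17re* with the epithelium mean. The cause was not tested for any of these. The AZN_MolairesWT2 exclusion was chosen after seeing the data. Values near 5 lie close to the background, which limits *Idi2* and *Eaf2*.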
